A study of Mus musculus with 12 samples.

Results

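The nitric oxide to cGMP relaxation pathway was followed here through 5 genes, chosen by symbol in the table of raw counts per Ensembl gene: Nos3, Gucy1a1, Gucy1b1, Prkg1 and Pde5a. They are 5 of the 52550 genes in the table, and all 5 passed the low-count filter that kept 17700 genes for testing. RNA was sequenced from wild-type mouse material in 4 groups of 3 libraries each. M scaffold cells were primary cells of the intestinal muscle layers, kept for 28 days on an electrospun gelatin scaffold in serum-free M medium (the differentiation medium) based on Advanced DMEM/F-12. It held N2, B27 without vitamin A, N-acetylcysteine, 10 µM of the ROCK inhibitor Y27632, 1 µg/ml of R-spondin1, which strengthens Wnt signalling, and 100 ng/ml of Noggin, which blocks BMPs. M plate cells had the same medium for 28 days on a well plate. P plate cells had DMEM with 10% FBS (the proliferation medium) for 28 days on a well plate. Strips of intestinal muscle were the positive control, although their labels also carry day 28. The media differ in serum and in every listed agent, so the parts these play cannot be told apart, and the primary cultures hold several cell types of the muscle wall. The sources used here do not give the animals' age, sex or number, or any pooling, so p-values measure the spread between libraries, which may be technical.

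Nitric oxide relaxes smooth muscle by binding the heme of soluble guanylyl cyclase, a dimer of an alpha and a beta subunit, which then makes cGMP. cGMP activates the type I cGMP-dependent kinase, which lowers calcium and the calcium sensitivity of contraction, and phosphodiesterases end the signal by hydrolysing cGMP. In the gut wall the nitric oxide of inhibitory motor neurons comes from the neuronal synthase Nos1, while Nos3 is the synthase of endothelium. Gucy1a1 and Gucy1b1 encode the alpha and beta subunits of the main cyclase, Prkg1 encodes the kinase, and Pde5a encodes the cGMP-specific phosphodiesterase that sildenafil inhibits.

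In GRCm38 coordinates, Nos3 (ENSMUSG00000028978) lies on the plus strand of chromosome 5 from 24364810 to 24384474. Prkg1 (ENSMUSG00000052920) spans 30564489 to 31765033 on the minus strand of chromosome 19. Pde5a (ENSMUSG00000053965) lies on the plus strand of chromosome 3 from 122728947 to 122859374. The cyclase genes are neighbours on the minus strand of chromosome 3: Gucy1b1 (ENSMUSG00000028005) from 82032006 to 82074689 and Gucy1a1 (ENSMUSG00000033910) from 82092427 to 82145789, with 17737 bases between them. The start-site windows of 4 of the 5 members are in the RefSeq table (GRCm38.p6), each with 300 bases on the strand of the gene. They are shown because 3 of these genes fell together in P plate against strips while the fourth did not pass. The windows are chr3:82145601-82145900 (Gucy1a1, minus strand), chr3:82074662-82074961 (Gucy1b1, minus strand), chr3:122728908-122729207 (Pde5a, plus strand) and chr19:31764984-31765283 (Prkg1, minus strand). The capitals mark GGGCGG, the core of the GC box.
Gucy1a1: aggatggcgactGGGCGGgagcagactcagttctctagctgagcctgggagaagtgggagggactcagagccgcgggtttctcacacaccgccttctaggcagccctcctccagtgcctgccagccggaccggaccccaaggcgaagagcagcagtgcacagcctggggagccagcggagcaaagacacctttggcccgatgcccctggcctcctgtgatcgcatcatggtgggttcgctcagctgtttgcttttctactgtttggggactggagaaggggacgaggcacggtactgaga
Gucy1b1: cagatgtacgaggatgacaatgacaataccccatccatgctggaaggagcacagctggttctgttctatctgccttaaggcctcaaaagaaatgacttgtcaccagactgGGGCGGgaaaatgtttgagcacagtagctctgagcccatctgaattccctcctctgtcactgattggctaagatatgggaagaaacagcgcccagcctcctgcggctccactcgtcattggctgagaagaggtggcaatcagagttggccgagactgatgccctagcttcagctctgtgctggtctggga
Pde5a: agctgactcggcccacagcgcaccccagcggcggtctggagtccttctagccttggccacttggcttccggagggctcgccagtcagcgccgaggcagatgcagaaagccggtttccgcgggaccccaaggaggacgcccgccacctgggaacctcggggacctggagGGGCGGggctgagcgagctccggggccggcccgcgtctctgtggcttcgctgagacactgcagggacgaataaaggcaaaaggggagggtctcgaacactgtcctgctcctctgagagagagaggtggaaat
Prkg1: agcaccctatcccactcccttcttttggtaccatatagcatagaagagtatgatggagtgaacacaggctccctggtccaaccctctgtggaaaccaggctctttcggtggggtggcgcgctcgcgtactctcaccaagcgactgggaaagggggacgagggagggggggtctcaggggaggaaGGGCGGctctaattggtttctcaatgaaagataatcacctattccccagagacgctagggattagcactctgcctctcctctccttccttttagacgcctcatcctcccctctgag

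Each of these 4 windows held 1 copy of GGGCGG, searched on both strands, and 35.7% of all 32851 windows of that length held at least 1. None of the 4 held a CArG box, the letters bound by serum response factor in many smooth muscle genes, which was found in 1.6% of all windows. CANNTG, the E box, occurred 3 times in the Gucy1b1 window, once in the Gucy1a1 window, 3 times in the Pde5a window and not in the Prkg1 window, against 72.3% of all windows with at least 1, and no copy overlapped GGGCGG. The GC content was 62.3% for Gucy1a1, 52.3% for Gucy1b1, 66.3% for Pde5a and 55.3% for Prkg1, against a median of 52.7%. A second RefSeq window of Gucy1a1, chr3:82145024-82145323, held 0 copies of GGGCGG and 0 of CANNTG, and one of Prkg1, chr19:31664321-31664620, held 1 of GGGCGG and 0 of CANNTG. Absence of these letters from 300 bases says nothing of binding elsewhere.

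The libraries held 21396485 to 116643512 counts assigned to genes, so a count of 0 allows at most 3 counts, which is 0.0257 to 0.140 CPM, counts scaled to the library's total. CPM levels are scaled by TMM factors. P plate replicate 1 stood apart from the other P plate libraries, with a macrophage marker sum of 19342 CPM, against 3807 and 2180 CPM, and it carried the highest level of 3 members in its group. M scaffold replicate 3, the deepest library, stood apart in its endothelium marker sum of 241 CPM, against 1623 and 1078 CPM in the other M scaffold libraries. Several results for the members are also given without 1 of these libraries, but not every result that either library may affect. Smooth muscle markers were present in every group, and no marker of that list was at 0 in all libraries of a group. The sum of its 10 genes was 5194 to 14530 CPM in M scaffold, 3968 to 6701 CPM in M plate, 5944 to 11597 CPM in the P plate libraries and 40927 to 43491 CPM in strips.

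Nos3 was the member with the widest range, 139-fold between its lowest and highest library. M plate cultures held the most, P plate cultures almost none, and M scaffold and strips lay between. Nos3 had 11.5, 7.14 and 1.61 CPM in M scaffold replicates 1 to 3, 14.6, 26.7 and 18.7 CPM in M plate, 0.192, 0.707 and 0.606 CPM in the P plate libraries and 3.09, 1.92 and 6.32 CPM in strips. All 3 M plate libraries were above all others, and all 3 P plate libraries, with 7, 23 and 19 counts, were below all others. M scaffold and strips overlapped, with M scaffold replicate 3 below every strip. Means were 6.76 ± 4.96 CPM in M scaffold, 20.01 ± 6.13 CPM in M plate, 0.501 ± 0.273 CPM in the P plate libraries and 3.78 ± 2.28 CPM in strips (SD, n = 3 each).

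By edgeR's quasi-likelihood test with Benjamini-Hochberg adjustment over all tested genes, Nos3 was higher in M plate than in P plate by 5.33 ± 0.81 log2 units (SE, adjusted p = 0.00106). It was higher in M scaffold than in P plate by 3.75 ± 0.77 (adjusted p = 0.00533), although limma-voom gave 3.02 and an adjusted p of 0.0793. Against strips, Nos3 fell by 2.94 ± 0.75 in P plate (adjusted p = 0.00606) and was higher by 2.38 ± 0.68 in M plate (adjusted p = 0.0126). The call against strips in M plate was lost without strips replicate 1, at 2.23 and an adjusted p of 0.0514. Neither M scaffold against M plate, -1.58 ± 0.66 (adjusted p = 0.203), nor M scaffold against strips, 0.81 ± 0.66 (adjusted p = 0.323, 95% interval -0.65 to 2.26), passed. The libraries of M scaffold and M plate did not overlap, and limma-voom called that difference, at -2.44 with an adjusted p of 0.0393. Without M scaffold replicate 3 the same difference was -1.10 (adjusted p = 0.356).

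By group median, the sum of endothelial markers had the same order as Nos3. The summed level of 10 endothelium markers (Pecam1, Cdh5, Tek, Tie1, Cldn5, Kdr, Emcn, Erg, Vwf and Egfl7) was 241 to 1623 CPM in M scaffold, 1796 to 2184 CPM in M plate, 24.7 to 44.5 CPM in the P plate libraries and 131 to 259 CPM in strips. Of the 10, 9 were called higher in M plate than in P plate and 8 lower in P plate than in strips. In M plate against strips 8 were higher and 1 lower, and in M scaffold against strips 7 were higher and 2 lower. Of all tested genes, 14.3% were higher in M plate than in P plate and 32.7% lower in P plate than in strips. Against strips, 26.5% of all tested genes were higher in M plate and 24.5% in M scaffold. None of the 10 was at 0 in all libraries of a group. The sum of 5 lymphatic endothelium markers was 242 to 1738 CPM in M scaffold, 2772 to 3711 CPM in M plate, 67.5 to 93.9 CPM in the P plate libraries and 39.4 to 48.4 CPM in strips. In bulk RNA, fewer cells of a type and less RNA per cell cannot be told apart. Per 1000 CPM of the 10 endothelium markers, Nos3 had 7.10, 6.63 and 6.71 CPM in M scaffold, 7.30, 12.2 and 10.4 CPM in M plate, 7.74, 15.9 and 19.9 CPM in the P plate libraries and 20.2, 14.7 and 24.4 CPM in strips. On that scale the 3 M scaffold libraries were below all others, whereas P plate and strips overlapped. The part of the endothelial markers in the Nos3 differences was not tested.

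**Figure D1:**
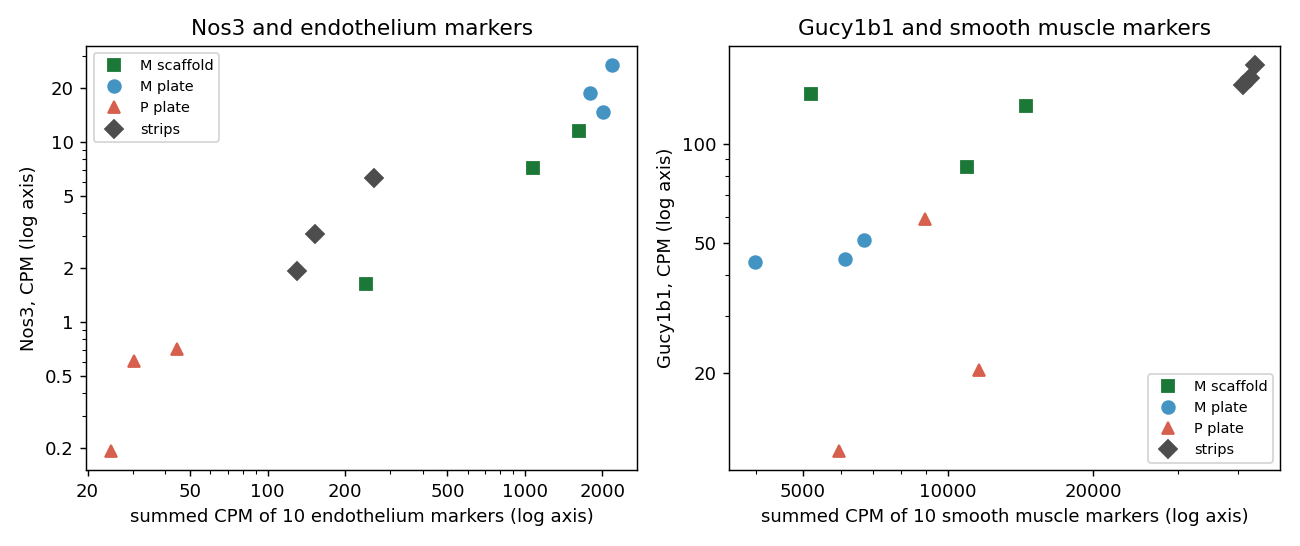
Left, Nos3 against the summed level of 10 endothelium markers; right, Gucy1b1 against the summed level of 10 smooth muscle markers, each point 1 of 12 libraries, both axes in TMM-scaled CPM on log scales. Nos3 lies between 0.192 and 26.7 CPM and is lowest where the endothelium sum is lowest, whereas Gucy1b1 in M scaffold reaches 85.0 to 142 CPM at smooth muscle sums of 5194 to 14530 CPM, below the strips' 40927 to 43491 CPM.

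The Nos3 value has 1 limit of counting. The kit does not mark strand, and 25.2% of the exon bases of Nos3 are shared with the antisense gene Gm15587 and 7.12% with Atg9b on the other strand. Gm15587 had 0 to 15 counts and Atg9b 27 to 530 counts per library, and reads from the shared stretches cannot be told apart by strand.

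The cyclase subunits were high in M scaffold and strips, intermediate in M plate and low in P plate. Gucy1a1 had 195, 346 and 93.0 CPM in M scaffold replicates 1 to 3, 66.6, 58.3 and 51.6 CPM in M plate, 48.6, 9.65 and 8.77 CPM in the P plate libraries and 151, 158 and 173 CPM in strips. All M scaffold libraries were above all M plate libraries, these were above all P plate libraries, and M scaffold straddled the strips. Gucy1b1 had 131, 142 and 85.0 CPM in M scaffold, 51.0, 43.7 and 44.6 CPM in M plate, 59.2, 11.6 and 20.5 CPM in the P plate libraries and 151, 174 and 159 CPM in strips. For this subunit all 3 strips were above every culture, M scaffold was above both plate groups, and P plate replicate 1 was above all of M plate. Mean levels of Gucy1a1 were 211 ± 127 CPM in M scaffold, 58.8 ± 7.54 CPM in M plate, 22.3 ± 22.8 CPM in the P plate libraries and 161 ± 11.4 CPM in strips. Those of Gucy1b1 were 119 ± 30.1 CPM in M scaffold, 46.5 ± 3.97 CPM in M plate, 30.4 ± 25.3 CPM in the P plate libraries and 162 ± 11.4 CPM in strips (SD, n = 3 each).

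Both subunits were higher in M scaffold than in P plate in edgeR's quasi-likelihood test, Gucy1a1 by 3.24 ± 0.67 log2 units (adjusted p = 0.00552) and Gucy1b1 by 1.97 ± 0.47 (adjusted p = 0.0123). Fitted to those 6 libraries alone the adjusted p was 0.0737 for Gucy1a1 and 0.112 for Gucy1b1. Both fell in P plate against strips, Gucy1a1 at -2.84 ± 0.66 (adjusted p = 0.00342) and Gucy1b1 at -2.41 ± 0.48 (adjusted p = 0.00137). In M plate against strips Gucy1b1 fell by 1.80 ± 0.47 (adjusted p = 0.00800), and Gucy1a1 differed by -1.45 ± 0.63 (adjusted p = 0.0713) with no overlap between libraries. That Gucy1a1 difference was called by DESeq2 (adjusted p = 0.0442), limma-voom (0.0296) and edgeR on the 6 libraries alone (1.84e-05). M scaffold against strips gave 0.40 ± 0.61 for Gucy1a1 (adjusted p = 0.611) and -0.44 ± 0.46 for Gucy1b1 (adjusted p = 0.439). The 95% interval of that difference ran from -0.96 to 1.76 log2 units for Gucy1a1 and from -1.45 to 0.57 for Gucy1b1, so it holds both lower and higher levels for each.

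For M plate against P plate, the outcome rested on P plate replicate 1. With it, Gucy1a1 differed by 1.39 ± 0.63 (adjusted p = 0.132) and Gucy1b1 by 0.61 ± 0.46 (adjusted p = 0.364), neither passing. Without it, both were called higher in M plate, Gucy1a1 by 2.68 (adjusted p = 0.00214) and Gucy1b1 by 1.54 (adjusted p = 0.00220). Without it, M scaffold exceeded P plate by 4.55 for Gucy1a1 (adjusted p = 0.000142) and 2.93 for Gucy1b1 (adjusted p = 7.43e-05), and P plate against strips was -4.16 (adjusted p = 5.31e-05) and -3.37 (adjusted p = 7.01e-06) for the same genes.

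Between the culture surfaces in M medium, Gucy1a1 differed by 1.85 ± 0.63 (adjusted p = 0.130) and Gucy1b1 by 1.36 ± 0.46 (adjusted p = 0.128) in M scaffold against M plate. Replicates of these 2 groups with the same number deviated together, and with the replicate number as a block within these 6 libraries both subunits were called higher on the scaffold, Gucy1a1 by 1.66 (adjusted p = 0.0463) and Gucy1b1 by 1.34 (adjusted p = 0.0229). With the block in all 12 libraries the adjusted p was 0.149 and 0.135. DESeq2 without a block also called both (adjusted p = 0.0353 and 0.0475).

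**Figure D2:**
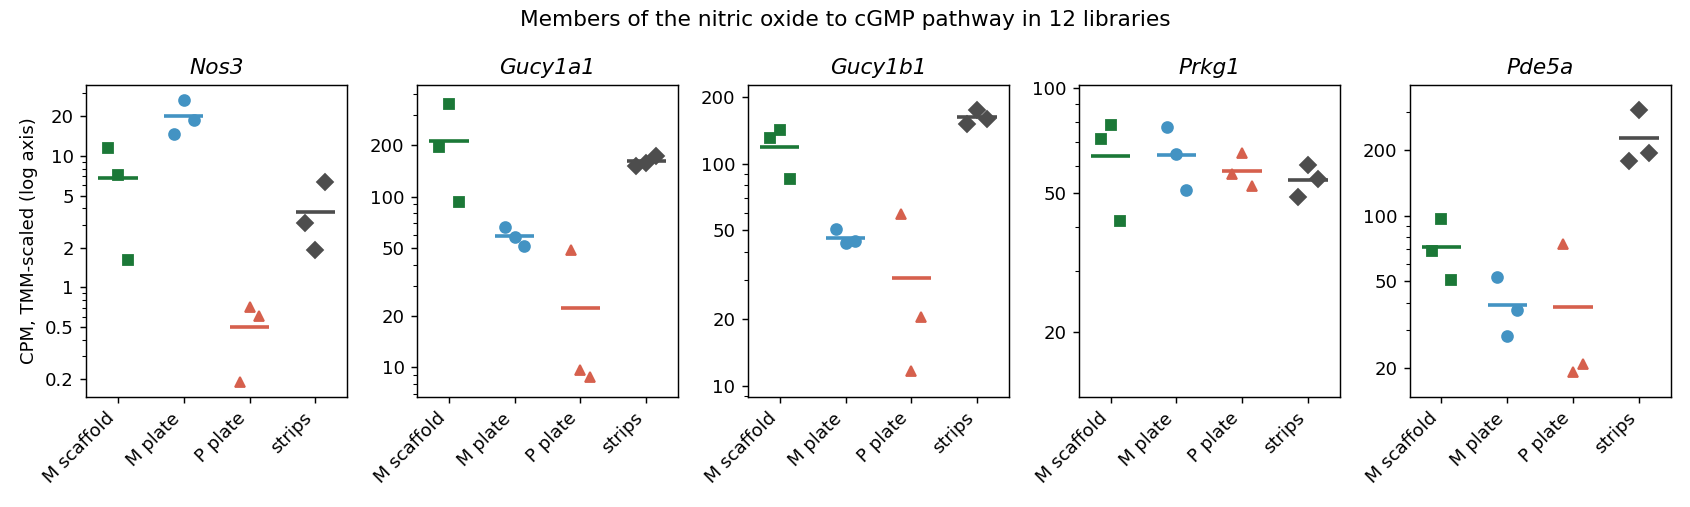
Level of each member in TMM-scaled CPM (log axis), with 1 point per library and a bar at the mean of 3 libraries in M scaffold, M plate, P plate and strips. Gucy1a1, Gucy1b1 and Pde5a have 1 P plate library, replicate 1, at 48.6, 59.2 and 73.8 CPM, far above the other P plate libraries, and Prkg1 stays between 41.8 and 78.6 CPM in all 12.

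Beside smooth muscle markers, the subunits did not follow the strips. Per 1000 CPM of the 10 smooth muscle markers, Gucy1a1 had 13.4, 66.7 and 8.49 CPM in M scaffold, 9.94, 14.7 and 8.44 CPM in M plate, 5.43, 1.62 and 0.756 CPM in the P plate libraries and 3.68, 3.64 and 4.08 CPM in strips. On that scale all M medium libraries were above all strips and above all P plate libraries. The marker sum that divides these values was lower in every culture library than in any strip. Gucy1b1 had 8.99, 27.3 and 7.76 CPM per 1000 CPM of the list in M scaffold, 7.61, 11.01 and 7.31 CPM in M plate, 6.61, 1.95 and 1.77 CPM in the P plate libraries and 3.70, 3.999 and 3.76 CPM in strips. Other cells of the wall that hold the cyclase are interstitial cells and pericytes. The sum of 5 markers of interstitial cells of Cajal was 211 to 445 CPM in M scaffold, 194 to 260 CPM in M plate, 113 to 191 CPM in the P plate libraries and 686 to 932 CPM in strips. Against strips all 5 were called lower in P plate, 4 in M plate and 2 in M scaffold, and the others did not pass. Of all tested genes, 32.7% were lower in P plate, 28.4% in M plate and 27.6% in M scaffold. The sum of 7 pericyte markers was 950 to 1324 CPM in M scaffold, 519 to 692 CPM in M plate, 273 to 416 CPM in the P plate libraries and 1797 to 2080 CPM in strips. Against strips, 2 of the 6 tested pericyte markers were called higher and 2 lower in M scaffold. In M plate 2 were higher and 4 lower, and in P plate 1 was higher and 4 lower. Of all tested genes, 52.1%, 54.9% and 63.1% were called in either direction in the same order. The sum of 3 markers of PDGFRA-positive interstitial cells was 1017 to 2289 CPM in M scaffold, 564 to 1228 CPM in M plate, 520 to 1566 CPM in the P plate libraries and 195 to 240 CPM in strips. Pdgfra alone carried that sum and was called higher than strips in all 3 cultures, whereas P2ry1 was called lower in all 3 and Kcnn3 lower in P plate, all 3 genes being named after their values were seen. The part of these cell types in the cyclase differences was not tested.

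The balance between the subunits was read as the ratio of CPM per kilobase of exon. The log2 ratio of Gucy1a1 to Gucy1b1 averaged -0.16 ± 0.58 in M scaffold, -0.49 ± 0.11 in M plate, -1.42 ± 0.55 in P plate and -0.84 ± 0.13 in strips (SD, n = 3 each), which is 0.374 Gucy1a1 per Gucy1b1 in P plate and 0.560 in strips. All 3 P plate libraries, from -2.05 to -1.09, were below all other libraries. The difference was -0.58 for P plate against strips, and the exact permutation test (two-sided) gave p = 0.1, the smallest that 3 against 3 libraries allow, with an adjusted p of 0.138 over the 18 ratio tests. The alternative alpha subunit, Gucy1a2, was scarce, with 1.31 to 2.08 CPM in M scaffold, 2.72 to 4.41 CPM in M plate, 0.400 to 2.22 CPM in the P plate libraries and 1.31 to 2.13 CPM in strips. Per kilobase, Gucy1a1 exceeded Gucy1a2 by 6.77 ± 0.63 log2 units in M scaffold, 4.02 ± 0.16 in M plate, 4.01 ± 0.77 in P plate and 6.61 ± 0.29 in strips. M scaffold and strips, both at a ratio of about 100 to 1 (109 and 97.6), did not overlap with the plate groups, both at 16.2 to 1, and each of those 4 comparisons had p = 0.1 by the exact permutation test.

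Prkg1, the kinase, was the member whose level varied least. It had 71.4, 78.6 and 41.8 CPM in M scaffold, 77.3, 64.7 and 51.3 CPM in M plate, 56.8, 65.2 and 52.3 CPM in the P plate libraries and 48.95, 60.5 and 54.9 CPM in strips. All 4 groups overlapped, and the highest of the 12 libraries was 1.88-fold above the lowest. None of the 6 comparisons passed edgeR's quasi-likelihood test, with differences from -0.01 ± 0.22 (M scaffold against M plate, adjusted p = 0.985) to 0.23 ± 0.22 log2 units (M plate against strips, adjusted p = 0.401). The 95% interval was 0.785-fold to 1.56-fold for M plate against P plate and 0.752-fold to 1.497-fold for P plate against strips, so larger changes lie outside the intervals and smaller ones do not. Against strips, scaling by upper quartiles or by library totals moved the median of all genes by -0.14 to -0.27 log2 units from its TMM value, and the sign of Prkg1 in P plate turned with both (-0.08 and -0.18). Per 1000 CPM of smooth muscle markers, Prkg1 had 3.81 to 15.1 CPM in M scaffold, 8.39 to 16.3 CPM in M plate, 4.51 to 10.96 CPM in the P plate libraries and 1.20 to 1.39 CPM in strips, with every culture above every strip. The divisor sets this order. The marker sum was 3968 to 14530 CPM in the cultures and 40927 to 43491 CPM in strips, while Prkg1 itself varied 1.88-fold. The part of smooth muscle in the Prkg1 level was not tested.

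Pde5a, the enzyme that removes cGMP, was lower in all 3 cultures than in strips. It had 69.2, 96.5 and 50.9 CPM in M scaffold, 52.3, 28.1 and 37.0 CPM in M plate, 73.8, 19.2 and 21.01 CPM in the P plate libraries and 178, 306 and 194 CPM in strips. No culture library reached the lowest strip, and P plate replicate 1 was above all libraries in M medium except M scaffold replicate 2. Group means were 72.2 ± 22.9 CPM in M scaffold, 39.1 ± 12.2 CPM in M plate, 38.0 ± 31.0 CPM in the P plate libraries and 226 ± 69.6 CPM in strips (SD, n = 3 each). Against strips, the Pde5a difference was -1.65 ± 0.50 log2 units in M scaffold (adjusted p = 0.0188), -2.53 ± 0.52 in M plate (adjusted p = 0.00212) and -2.57 ± 0.52 in P plate (adjusted p = 0.00149) in edgeR's quasi-likelihood test. Without P plate replicate 1 the P plate difference was -3.53 (adjusted p = 3.25e-05). The M scaffold call was lost without M scaffold replicate 1 (-1.61, adjusted p = 0.0529), without M scaffold replicate 3 (-1.44, adjusted p = 0.0663) and without strips replicate 2 (-1.38, adjusted p = 0.0623). Between cultures Pde5a did not pass: M scaffold against M plate was 0.88 ± 0.49 (adjusted p = 0.337), M scaffold against P plate 0.92 ± 0.50 (adjusted p = 0.202) and M plate against P plate 0.04 ± 0.49 (adjusted p = 0.965). Without P plate replicate 1, Pde5a was called higher in M scaffold than in P plate, by 1.87 (adjusted p = 0.00328), and M plate against P plate was 0.96 (adjusted p = 0.0593). Per 1000 CPM of smooth muscle markers, Pde5a had 4.77, 18.6 and 4.65 CPM in M scaffold and 7.80, 7.09 and 6.06 CPM in M plate. It had 8.24, 3.24 and 1.81 CPM in the P plate libraries and 4.36, 7.03 and 4.56 CPM in strips. On that scale every culture group overlapped the strips. The part of smooth muscle in the Pde5a differences was not tested.

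The level of Pde5a relative to Prkg1, per kilobase, was highest in strips. The log2 ratio was 0.32 ± 0.19 in M scaffold, -0.60 ± 0.40 in M plate, -0.76 ± 1.13 in P plate and 2.15 ± 0.29 in strips (SD, n = 3 each), so that strips had 4.44 Pde5a per Prkg1. Every culture was below every strip, with mean differences of -1.83 in M scaffold, -2.75 in M plate and -2.91 in P plate, and each of the 3 exact permutation tests gave p = 0.1. M scaffold was above M plate by 0.92 without overlap (exact permutation p = 0.1), whereas P plate, with replicate 1 at 0.52 and the others at -1.62 and -1.17, overlapped both.

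**Figure D3:**
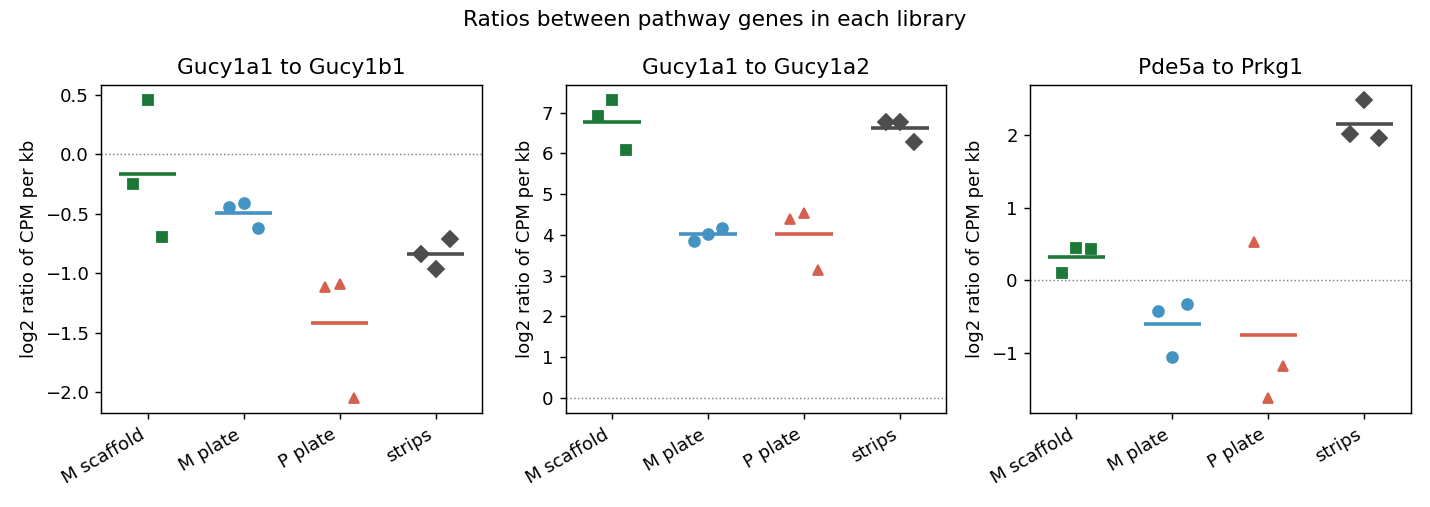
Log2 ratio of CPM per kilobase of exon for 3 gene pairs, with 1 point per library and a bar at the group mean of M scaffold, M plate, P plate and strips. P plate is lowest for Gucy1a1 to Gucy1b1 (mean -1.42), both plate groups lie near 4 for Gucy1a1 to Gucy1a2 (means 4.02 and 4.01), and strips are highest for Pde5a to Prkg1 (mean 2.15).

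Counted over the members, the 6 comparisons share their groups, each of which enters 3 of them. In M plate against P plate, 1 of 5 members was called, Nos3, higher, while 24.9% of the 17700 tested genes were called, 14.3% higher and 10.6% lower. In M scaffold against M plate, 0 of 5 were called in edgeR's quasi-likelihood test, against 3.18% of tested genes, 1.53% higher and 1.64% lower. The unadjusted p of that edgeR test was 0.0147 for Gucy1a1, 0.0144 for Gucy1b1, 0.0374 for Nos3, 0.103 for Pde5a and 0.960 for Prkg1. DESeq2 called 2 members there, limma-voom 1 and the blocked fit within the 6 libraries 2. These fits also called more genes in all, 2025, 1004 and 1718 in that order, against 562 in the main fit. In M scaffold against P plate, 3 of 5 were called, all higher (Nos3, Gucy1a1 and Gucy1b1), against 24.7% of tested genes, 15.1% higher and 9.61% lower. The fit to those 6 libraries alone called 1 member, and with the block 0, among 1791 and 915 genes called in all.

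Against strips the background was high. In P plate 4 of 5 members were called, all lower, against 63.1% of tested genes, 30.5% higher and 32.7% lower. In M plate 3 of 5 were called, Nos3 higher and Gucy1b1 and Pde5a lower, against 54.9% of tested genes, 26.5% higher and 28.4% lower. In M scaffold 1 of 5 was called, Pde5a, lower, against 52.1% of tested genes, 24.5% higher and 27.6% lower. The members' shares are of 5 genes only, and 3 of 5 in M plate is near the background. The median difference over the 5 members was -2.57 in P plate, -1.45 in M plate and 0.22 in M scaffold, while that of all tested genes lay between -0.03 and -0.01 in these comparisons.

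**Figure D4:**
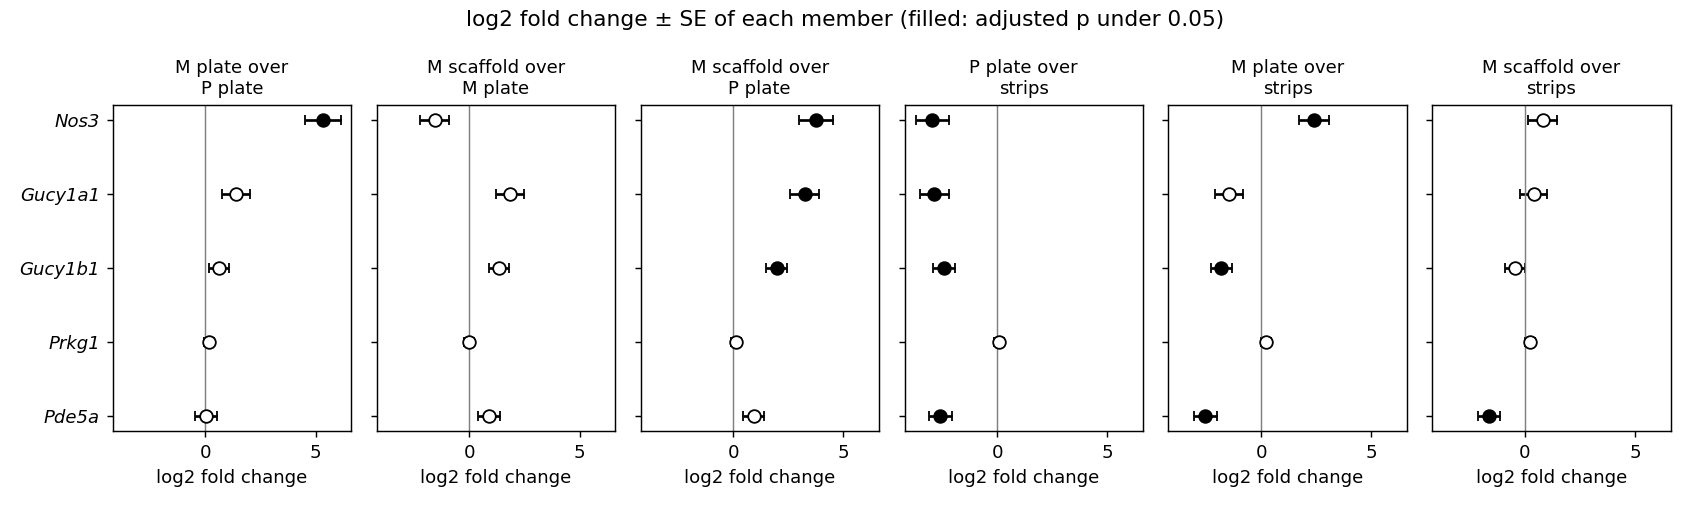
Log2 fold change of each member with its SE in 6 comparisons, the first-named group over the second, filled where edgeR's adjusted p was under 0.05. Nos3 ranges from -2.94 in P plate over strips to 5.33 in M plate over P plate, while Prkg1 stays between -0.01 and 0.23 in all 6.

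Genes with the most similar profiles were sought among 13741 named genes averaging 1 CPM or more, by the root mean square difference of centred log2 CPM over the 12 libraries. For Gucy1a1 the nearest were Ptn (0.45 log2 units), Camk2a (0.48) and Pcdh1 (0.51), with Gucy1b1 in rank 7 (0.57). For Gucy1b1 they were Bean1 (0.33), Lrrc4c (0.37) and Plcb1 (0.38), with Pde5a in rank 46 (0.54) and Gucy1a1 in rank 61. For Pde5a they were Hpcal4 (0.36), Lpar4 (0.36) and Syn1 (0.39), for Nos3 Emid1 (0.55), N4bp3 (0.58) and Sigirr (0.66), and for Prkg1 Fbxl17 (0.13), Msl2 (0.15) and Ubr1 (0.15). Nos3 was 1.93 to 2.36 log2 units from the other members, for which it stood in rank 11439 to 12933. Seen from Nos3 itself, Gucy1a1 was in rank 1915, Prkg1 in 2657, Gucy1b1 in 4709 and Pde5a in 11583, so most genes searched were farther from Nos3 than Gucy1a1 was. The libraries of a group share its conditions, so these distances describe the 12 libraries only.

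The other genes of the pathway were taken from 7 lists of synthases, synthase regulators, cyclases and natriuretic peptide receptors, kinases, kinase substrates and partners, phosphodiesterases, and export and redox genes. Of these, 51 are not members, and all were tested. In M plate against P plate 9 were called higher, 9 lower and 33 did not pass, with a median of 0.05 log2 units against -0.00 for all genes. In M scaffold against M plate 3 were higher, 0 lower and 48 did not pass (median 0.30 against 0.01). In M scaffold against P plate 18 were higher, 5 lower and 28 did not pass (median 0.26 against -0.03). Against strips, P plate had 11 higher and 25 lower (median -0.46), M plate 6 higher and 25 lower (median -0.50) and M scaffold 7 higher and 16 lower (median -0.21), beside medians of all genes from -0.03 to -0.01. The share of the 51 called in either direction was 45.1% in M scaffold, 60.8% in M plate and 70.6% in P plate against strips, beside 52.1%, 54.9% and 63.1% of all tested genes. In either direction these shares were near the background or below it, but lower calls outnumbered higher ones in each culture. Of all tested genes, 24.5% were higher and 27.6% lower in M scaffold, 26.5% and 28.4% in M plate, and 30.5% and 32.7% in P plate. Between cultures it was 35.3% in M plate against P plate, 5.88% in M scaffold against M plate and 45.1% in M scaffold against P plate, beside 24.9%, 3.18% and 24.7% of all tested genes.

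Among the synthases, Nos1, the neuronal enzyme, had 168, 112 and 239 CPM in M scaffold, 90.7, 38.4 and 71.1 CPM in M plate, 2.87, 1.32 and 3.83 CPM in the P plate libraries and 166, 226 and 278 CPM in strips. M scaffold overlapped strips, M plate lay below both, and P plate was far below. Nos1 was higher in M scaffold than in P plate by 6.01 ± 0.51 (adjusted p = 2.76e-05), higher in M plate than in P plate by 4.64 ± 0.48 (adjusted p = 0.000114) and lower in P plate than in strips, at -6.38 ± 0.52 (adjusted p = 4.24e-06). The sum of 8 enteric neuron markers was 320 to 426 CPM in M scaffold, 112 to 180 CPM in M plate, 29.1 to 76.6 CPM in the P plate libraries and 915 to 1236 CPM in strips, and the part of neurons in the Nos1 difference was not tested. Nos2, the inducible enzyme, had 8.76, 6.12 and 4.54 CPM in M scaffold, 1.29, 1.22 and 1.43 CPM in M plate, 3.91, 0.0922 and 0.159 CPM in the P plate libraries and 0.602, 1.00 and 1.12 CPM in strips. Its only call, M scaffold over strips at 2.82 ± 1.01 (adjusted p = 0.0373), was lost when any of 5 of the 6 libraries was left out (adjusted p = 0.0646 to 0.116).

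Among the 15 regulators and suppliers of the synthases, 2 were higher and 6 lower in M plate than in P plate, and 7 did not pass. Of all tested genes, 14.3% were higher and 10.6% lower in that comparison. Arginase genes, whose enzymes compete with nitric oxide synthase for arginine, were high in P plate. Arg1 had 5.07, 1.37 and 26.1 CPM in M scaffold, 0.315, 2.54 and 0.283 CPM in M plate, 239, 48.3 and 68.1 CPM in the P plate libraries and 0.958, 0.834 and 0.615 CPM in strips, and the difference of P plate from strips was 7.23 ± 1.35 (adjusted p = 0.000902). Arg2 was higher in P plate than in strips by 4.58 ± 0.60 (adjusted p = 9.17e-05), and lower in M plate than in P plate, at -3.07 ± 0.54 (adjusted p = 0.00253). Arg1 is also a macrophage gene, and the macrophage marker sum was 1625 to 3886 CPM in M scaffold, 3216 to 4129 CPM in M plate, 2180 to 19342 CPM in the P plate libraries and 145 to 204 CPM in strips. The part of macrophages in the Arg1 difference was not tested. Gchfr, which feeds back on cofactor synthesis, was higher in M plate than in P plate by 4.46 ± 0.58 (adjusted p = 0.000419) at low levels, 1.97 to 3.10 CPM in M plate against 0.0922 to 0.128 CPM in P plate. Cav1, caveolin-1, which binds and inhibits the endothelial synthase, was lower than in strips in every culture, at -2.09 ± 0.33 in M scaffold, -2.11 ± 0.33 in M plate and -3.34 ± 0.35 in P plate (adjusted p = 0.000615, 0.000466 and 2.14e-05).

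The other cGMP kinase, Prkg2, did not share the even level of Prkg1. It had 1.78, 2.95 and 4.71 CPM in M scaffold, 1.26, 1.40 and 1.82 CPM in M plate, 7.12, 8.52 and 10.2 CPM in the P plate libraries and 4.35, 14.0 and 6.24 CPM in strips. M plate was lower than P plate, at -2.52 ± 0.47 (adjusted p = 0.00334), and lower than strips, at -2.44 ± 0.46 (adjusted p = 0.00136). Of the receptor cyclases, which make cGMP from natriuretic peptides, Npr1 had 127, 95.05 and 46.5 CPM in M scaffold, 134, 151 and 122 CPM in M plate, 1.29, 48.8 and 19.99 CPM in the P plate libraries and 36.5, 32.5 and 34.8 CPM in strips. It passed in no comparison, with M plate against P plate at 2.54 ± 0.85 (adjusted p = 0.0520).

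The phosphodiesterase list holds 10 genes, Pde5a included, and 1 of them, Pde6d, encodes a subunit without catalytic activity. Of the 10, 8 were lower and 1 higher in P plate than in strips. In M plate 7 were lower and 1 higher, and in M scaffold 4 were lower, 1 was higher and 5 did not pass. Of all tested genes 32.7% were lower in P plate, 28.4% in M plate and 27.6% in M scaffold. The higher one was Pde10a in each case, named after its values were seen. The medians of the list were -1.79, -1.81 and -0.86 log2 units in the same order. Pde9a, which has a high affinity for cGMP, had 18.2, 11.2 and 7.78 CPM in M scaffold, 6.45, 5.20 and 4.73 CPM in M plate, 0.821, 1.01 and 0.861 CPM in the P plate libraries and 76.2, 98.8 and 96.2 CPM in strips. The 4 groups did not overlap, in the order strips, M scaffold, M plate, P plate. Pde9a was lower than in strips, at -2.87 ± 0.28 in M scaffold, -4.05 ± 0.29 in M plate and -6.65 ± 0.34 in P plate (adjusted p = 4.30e-05, 7.37e-06 and 4.84e-07). Its rise in M scaffold over M plate, 1.18 ± 0.27 (adjusted p = 0.0458), was lost without any 1 of 5 libraries (adjusted p = 0.0685 to 0.177) and with the replicate block in all 12 libraries (adjusted p = 0.0637), but not with the block within the 6 (adjusted p = 0.0342). Pde1c, a calmodulin-dependent enzyme, was lower than in strips, at -2.23 ± 0.59 in M scaffold, -4.34 ± 0.65 in M plate and -5.79 ± 0.72 in P plate (adjusted p = 0.00940, 0.000333 and 6.14e-05).

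Of the 15 kinase substrates and partners of smooth muscle, 8 were lower and 2 higher in M scaffold than in strips, 10 lower and 2 higher in M plate, and 9 lower and 4 higher in P plate, with medians of -1.01, -1.52 and -1.59. Of all tested genes, 27.6% were lower than strips in M scaffold, 28.4% in M plate and 32.7% in P plate. Between M plate and P plate 3 of the 15 were higher, 1 was lower and 11 did not pass (median -0.06). Of all tested genes, 14.3% were higher and 10.6% lower between these groups. This list includes Cnn1, a smooth muscle marker, and smooth muscle markers were lower than in strips as well, 8 of 10 in M scaffold, 10 in M plate and 8 in P plate. Kcnma1, the pore of the large-conductance potassium channel that the kinase opens, had 40.3, 35.2 and 50.4 CPM in M scaffold, 20.8, 16.1 and 17.1 CPM in M plate, 6.24, 7.35 and 3.54 CPM in the P plate libraries and 106, 126 and 120 CPM in strips. No group overlapped another. It was lower than in strips, at -1.48 ± 0.23 in M scaffold, -2.71 ± 0.25 in M plate and -4.36 ± 0.27 in P plate (adjusted p = 0.000572, 2.11e-05 and 9.30e-07).

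Between the 2 M medium cultures, Kcnma1 was higher on the scaffold by 1.23 ± 0.23 (adjusted p = 0.0290) and Irag1, the substrate through which the kinase restrains calcium release, by 0.93 ± 0.18 (adjusted p = 0.0311). Each call was lost without any 1 of 5 libraries, at adjusted p = 0.0523 to 0.139 for Kcnma1 and 0.0547 to 0.144 for Irag1. With the replicate block in all 12 libraries both had an adjusted p of 0.0511. The block within the 6 libraries called 9 of the 51 genes, but also 1718 genes in all, against 562 in the main fit. Pln, phospholamban, which restrains the calcium pump of the sarcoplasmic reticulum, had 25.7, 15.03 and 7.76 CPM in M scaffold, 4.84, 8.17 and 5.06 CPM in M plate and 44.5, 54.9 and 43.5 CPM in strips, but only 0, 2 and 0 counts in P plate. Rgs2, which the kinase activates to blunt contractile receptors, was lower than in strips, at -1.71 ± 0.41 in M scaffold, -2.53 ± 0.43 in M plate and -3.09 ± 0.44 in P plate (adjusted p = 0.00609, 0.000678 and 0.000152). Rhoa and Lasp1, named after their values were seen, were called higher than strips in all 3 cultures, Lasp1 by 0.95 ± 0.21 in M scaffold, 1.07 ± 0.21 in M plate and 1.40 ± 0.21 in P plate (adjusted p = 0.00350, 0.00155 and 0.000215).

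**Figure D5:**
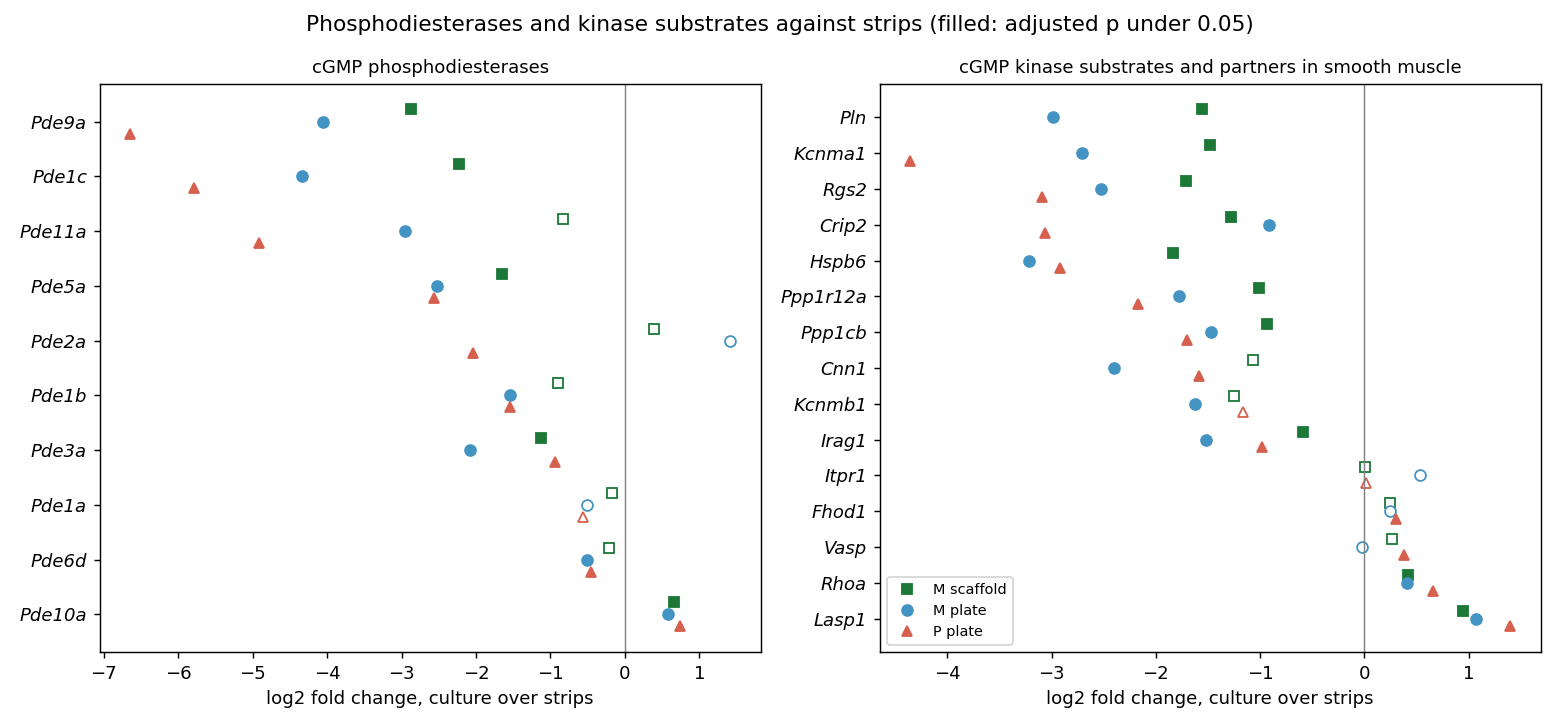
Log2 fold change of M scaffold, M plate and P plate over strips, filled where edgeR's adjusted p was under 0.05. Left, the 10 genes of the phosphodiesterase list, and right, 15 kinase substrates and partners. Pde9a runs from -2.87 in M scaffold to -6.65 in P plate, and Kcnma1 from -1.48 to -4.36. Pln in P plate, with 2 counts in all, is not drawn.

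Of the 4 export and redox genes, Cyb5r3, the reductase that keeps the heme of the cyclase able to bind nitric oxide, was higher than in strips in every culture. It had 498, 621 and 757 CPM in M scaffold, 496, 537 and 617 CPM in M plate, 454, 562 and 714 CPM in the P plate libraries and 242, 219 and 240 CPM in strips. The differences were 1.42 ± 0.20 in M scaffold, 1.23 ± 0.20 in M plate and 1.304 ± 0.20 in P plate (adjusted p = 0.000273, 0.000455 and 0.000222). Between cultures none of the 4 passed.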

How the data were processed

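RNA from 12 mouse libraries, 4 groups of 3, was sequenced with a library kit that does not mark strand, per the labels' protocols. The deposited table holds raw read counts per Ensembl gene, 1 column per library and 0 columns of no sample; STAR 2.6.0 and GRCm38 are named in the submitters' processing notes, and the counting program is not stated there. The labels speak of technical replicates, and how they were joined is not given. Entries that name no gene (5 in all) were left out of library sizes; reads in no feature were 2.57 to 4.42% and ambiguous reads 1.83 to 2.24% of the table. Of 52550 genes, 52403 matched GENCODE M21.

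Genes were filtered by expression (17700 kept), scaled by TMM and tested with edgeR 4.0.16 (quasi-likelihood, all 12 libraries, 8 residual degrees of freedom) in R 4.3.3, with Benjamini-Hochberg adjustment and a threshold of 0.05. CPM values are TMM-scaled, and ratios used the exon union as length and exact permutation tests (scipy 1.17.1). DESeq2 1.42.0, limma-voom (limma 3.58.1), other scalings and filters, the 6 compared libraries alone, replicate blocks, another prior count, another gene length and leaving out each library were alternatives. The fit was tested on simulated data. The 95% intervals of the differences come from the edgeR fit and include the spread between libraries, whereas the limit of 3 counts for a count of 0 covers counting error only.

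Replicate numbers come from the labels. Same-numbered M scaffold and M plate libraries deviated together (r = 0.29, 0.20 and 0.30), although no label states a pairing. The main fit has no block, and fits with the replicate number as a block are given beside it. In the other comparisons r lay between -0.10 and 0.13.

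The members and gene lists were chosen with earlier results of these data known. Named were the members, at most 4 called genes per list and comparison with the largest change, at most 2 uncalled genes per list with the highest mean, and the 3 nearest genes per member.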

Additional observations from a re-analysis of the deposited data

How the results depend on the processing

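Counts of calls depended on the fit, in edgeR unless named. In M scaffold against M plate, 562 genes were called, against 2025 by DESeq2, 1004 by limma-voom, 1068 in the 6 libraries alone and 1718 with the replicate block within them; members called were 0, against 2, 1, 1 and 2. Other pathway genes called there were 3, against 13 by DESeq2, 9 with the replicate block within 6 libraries and 0 with the replicate block in all 12. In M plate against P plate, 4400 genes became 2846 in the 6 libraries alone and 1300 with the block, other pathway genes 18 became 9 with the block, and members 1 became 2 by limma-voom. In M scaffold against P plate, 4375 genes became 1791 and 915, members 3 became 1 and 0, and other pathway genes 23 became 8 and 7, in the 6 libraries alone and with the block. For M plate and M scaffold against P plate, r between same-numbered libraries lay between -0.10 and 0.13, and no label states a pairing. The block changed no other count by over 1.5 times.

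Leaving out 1 library gave these ranges. M scaffold against M plate had 18 to 348 genes, 0 members and 0 to 3 other pathway genes. M plate against P plate had 2630 to 5188 genes, 1 to 3 members (3 without P plate replicate 1) and 11 to 24 others. M scaffold against P plate had 14 to 26 others, and M scaffold against strips 0 to 1 member. Differences that changed sign were Prkg1 in M scaffold against M plate (-0.17 to 0.22), M plate against P plate (-0.0072 to 0.29), M scaffold against P plate (-0.0105 to 0.37) and P plate against strips (-0.00825 to 0.14), Pde5a in M plate against P plate (-0.28 to 0.96) and Gucy1a1 in M scaffold against strips (-0.17 to 0.76).

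None of the sign changes below concerned a called value, and the cause was not tested. Prkg1 in M scaffold against M plate was 0.00508 by DESeq2, 0.000105 with size factors, 0.00339 with upper quartiles and 0.00886 without the filter. Prkg1 in P plate against strips was -0.0783 with upper quartiles and -0.18 with library totals, and in M scaffold against strips -0.0106 with library totals. Nos3 in M scaffold against strips was -0.12 by limma-voom. With the longest transcript as length, the log2 ratio of Gucy1a1 to Gucy1b1 turned from -0.16 to 0.12 in M scaffold, and was -0.21 in M plate and -0.56 in strips. That of Gucy1a1 to Gucy1a2 was 3.54 in M plate and 6.13 in strips, and that of Pde5a to Prkg1 was 0.0555 in M scaffold. A length moves every group alike. Low depth limits Nos3 in P plate (7 to 23 counts), and also Gchfr (3 to 4 counts), Pde1c (4 to 50 counts) and Pln there.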
